A study of Homo sapiens with 8 samples.

Results

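The clustered protocadherins are 54 genes on chromosome 5 that were picked by name out of the 60332 genes in the expression table. They comprise 16 genes of the alpha cluster (PCDHA1 to PCDHA14, PCDHAC1 and PCDHAC2), 16 of the beta cluster (PCDHB1 to PCDHB16) and 22 of the gamma cluster (the PCDHGA and PCDHGB genes and PCDHGC3, PCDHGC4 and PCDHGC5). Names ending in P, which are pseudogenes, were left out. PCDHA14 was kept by its name, although the annotation lists it as a transcribed pseudogene. The data were asked which isoforms each Ewing sarcoma line used, and whether silencing of the LOXHD1 enhancer changed that use.

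RNA came from the established Ewing sarcoma cell lines RD-ES and SK-N-MC, and each line had 2 libraries of control cells and 2 of eKD2 cells. The eKD2 cells of both lines were infected with a lentivirus for dCas9-KRAB (a Cas9 that binds without cutting, fused to a repressor domain). Its guide was aimed at a site beside the GGAA repeat that serves as the LOXHD1 enhancer. The labels give the controls as infected with the empty dCas9-KRAB virus, whereas the study's text calls them parental cells. The virus was used at a multiplicity of infection of 10, infected cells were kept in 1 µg/ml puromycin for 3 days, and the pooled, uncloned survivors were taken within 5 passages of selection. The values are FPKM, fragment numbers scaled to transcript length and to the depth of the library. The labels do not say that the libraries of a group came from separate cultures, and the study's text calls them biological duplicates, so the p-values measure the spread between these libraries.

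Clustered protocadherins are cadherin-like adhesion proteins of the cell surface that are best known from the nervous system. Each of the genes in the alpha and gamma clusters has its own promoter and its own large exon for the extracellular domain, which is spliced to constant exons shared by the whole cluster, whereas a beta gene encodes its whole protein in its own exon. Neurons use a few of these promoters at a time, and cells that carry the same isoforms recognise each other by binding of like to like. The C-type members (PCDHAC1, PCDHAC2, PCDHGC3, PCDHGC4 and PCDHGC5) lie at the downstream ends of their clusters and are more widely expressed among neurons than the others. Promoter choice is tied to DNA methylation, to CTCF and to cohesin, and most of the promoters share a conserved element with the core CGCT.

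The target of the guide was lower in every eKD2 library. LOXHD1 went from 21.4 and 21.2 FPKM in the RD-ES controls to 1.03 and 1.02 FPKM with eKD2. For SK-N-MC its controls held 158.9 and 169.0 FPKM, and its eKD2 libraries 11 and 11.9 FPKM. All 8 Ewing sarcoma markers examined (CD99, NKX2-2, NR0B1, STEAP1, LIPI, CCND1, PAX7 and BCL11B) were above 1 FPKM in every library. The depth of the libraries, estimated from the steps that whole reads leave in the low values, ran from 7.52 M reads (RD-ES eKD2 replicate 1; M, mega) to 30.2 M (SK-N-MC control replicate 1). At that depth, 1 FPKM in a gene of 3300 bases rested on about 23.3 to 93.6 reads.

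The clusters span bases 140165721 to 140391932 (alpha), 140430959 to 140628933 (beta) and 140710081 to 140892544 (gamma) of chromosome 5 in GRCh37, with all named members on the plus strand. The RefSeq promoter table (GRCh38.p14, 250 bases before to 50 after each start) held 47 of the 54 members. The elements around CGCT of 8 members that were higher in the controls of 1 line are shown here as examples, 5′ to 3′ on the plus strand, with the CGCT core in capitals. PCDHA2, PCDHA11, PCDHB3, PCDHGB4 and PCDHGB5 were higher in RD-ES, and PCDHA4, PCDHB5 and PCDHGA11 in SK-N-MC.
PCDHA2 (chr5:140794785-140794814): gccacatgatgtCGCTgtccaccatagagt
PCDHA11 (chr5:140868887-140868916): ggcgcaaggtgtCGCTctttacttggtgga
PCDHA4 (chr5:140806983-140807012): gccacatgatgtCGCTctttaccacaaaat
PCDHB3 (chr5:141100397-141100426): aacgcatggtggCGCTgttgactaagaagg
PCDHB5 (chr5:141135183-141135212): gacgcctggtggCGCTgcaggctaagagtg
PCDHGB4 (chr5:141387621-141387650): gactctgggcgcCGCTgttggccaaagtgg
PCDHGB5 (chr5:141397867-141397896): gactctgggcgcCGCTgttggccaaagtgc
PCDHGA11 (chr5:141420976-141421005): ggctctaggcgcCGCTgctcaccaatcagg

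Searched on both strands, the letters beside CGCT differed from cluster to cluster. ATGTCGCT was found in 9 of 13 alpha promoters and in no beta or gamma promoter, against 0.234% of all 35097 promoters in the table. GTGGCGCT was found in 13 of 14 beta promoters and in no alpha or gamma promoter, against 1.15% of all promoters. CGCTGTT was found in 13 of 20 gamma promoters and in 1 beta promoter (PCDHB3), against 2.26% of all promoters. CGCT itself, which is part of the other motifs, was in 46 of the 47 member promoters but also in 70.0% of all promoters. These motifs were chosen after the member promoters had been looked at, and most promoters that hold them lie outside the clusters. PCDHA2, higher in RD-ES, and PCDHA4, higher in SK-N-MC, both held ATGTCGCT, whereas PCDHA11, higher in RD-ES, did not. PCDHB3 and PCDHB5 both held GTGGCGCT. Of the gamma members shown, PCDHGB4 and PCDHGB5, higher in RD-ES, held CGCTGTT, and PCDHGA11, higher in SK-N-MC, did not.

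Both lines expressed members of all 3 clusters at low to moderate levels. Of the 54 members, 18 had a group mean of at least 1 FPKM in RD-ES control and 18 in SK-N-MC control. The count was the same but the genes were not, since 9 members reached 1 FPKM in both lines, 9 in RD-ES only and 9 in SK-N-MC only, and 27 in neither. With 0.5 FPKM as the limit, 36 members reached it in RD-ES control and 23 in SK-N-MC control. Of these, 20 did so in both, 16 in RD-ES only and 3 in SK-N-MC only, so the even split depended on the limit. Some members lay close to 1 FPKM in both lines, such as PCDHGB1 (means of 1.045 and 0.8839 FPKM in RD-ES and SK-N-MC control) and PCDHA5 (0.9494 and 1.189 FPKM). These counts have no share over all genes beside them. In bulk RNA, many cells with a little of an isoform and few cells with much of it cannot be told apart.

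**Figure D1:**
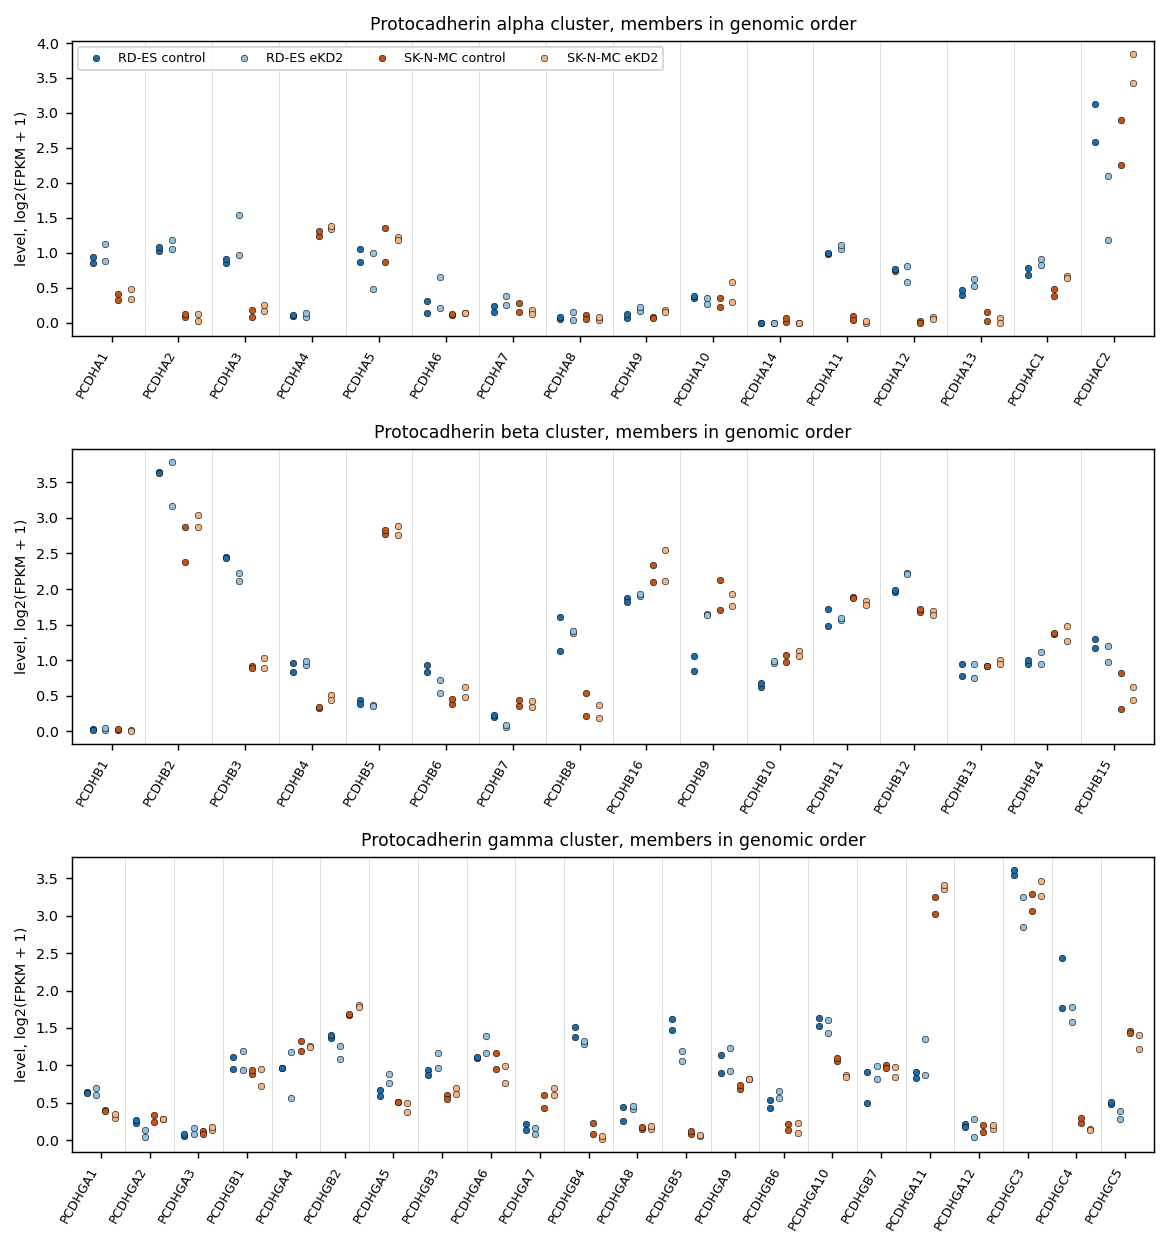
Level of each of the 54 members in each of the 8 libraries, as log2(FPKM + 1), with the members of each cluster in genomic order; each point is 1 library and colours give the line and treatment. PCDHA4, PCDHB5 and PCDHGA11 stand high in the 4 SK-N-MC libraries, whereas PCDHA2, PCDHB3, PCDHGB4 and PCDHGB5 stand high in the 4 RD-ES libraries.

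A sum cannot differ more between the lines than its most different member does, so the summed levels of the clusters are a description. The alpha sum in SK-N-MC control was 0.682-fold that of RD-ES control, and PCDHAC2 (0.803-fold) and PCDHA5 (1.25-fold) differed less. The beta cluster summed to 31.9 ± 0.143 FPKM in RD-ES control and 28.8 ± 0.34 FPKM in SK-N-MC control (SD, n = 2 each). The gamma cluster summed to 30.8 ± 2.52 and 28.6 ± 0.381 FPKM, and the alpha cluster to 13.5 ± 2.24 and 9.24 ± 1.55 FPKM, in the same order. The libraries of the lines did not overlap in any of these sums, with an exact two-sided permutation p of 0.33 for each, the smallest that 2 against 2 libraries can give. Without its highest member the beta cluster was higher in SK-N-MC control (22.7 and 24.3 FPKM) than in RD-ES control (20.5 and 20.5 FPKM), so the direction of that sum depended on PCDHB2. The direction of the gamma sum likewise depended on PCDHGC3, without which it stood at 18.3 and 21.4 FPKM in RD-ES control and 19.6 and 21.5 FPKM in SK-N-MC control.

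In the alpha cluster the lines shared the C-type PCDHAC2 and differed in the other members. PCDHAC2, which serotonergic neurons need to space their axons, measured 5.01 and 7.70 FPKM in RD-ES control and 3.77 and 6.43 FPKM in SK-N-MC control, with overlapping libraries. It made up 41.9% and 50.9% of the alpha sum in RD-ES control and 46.4% and 62.2% in SK-N-MC control. Its replicates stood apart from each other, with an SD of 1.90 FPKM in RD-ES control and 1.88 FPKM in SK-N-MC control.

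Among the alpha members with alternate exons, those higher in RD-ES included PCDHA1, PCDHA2, PCDHA3 and PCDHA11, and PCDHA4 was higher in SK-N-MC. At a group mean of 1 FPKM, RD-ES control had PCDHA2, and SK-N-MC control had PCDHA4 and PCDHA5. PCDHA4 measured 0.0724 and 0.0826 FPKM in RD-ES control against 1.36 and 1.49 FPKM in SK-N-MC control, 18.4-fold higher by the group means. PCDHA2 went the other way, with 1.03 and 1.11 FPKM in RD-ES control and 0.0602 and 0.0932 FPKM in SK-N-MC control, 14-fold higher in RD-ES. None of these 5 genes overlapped between the lines in their control libraries, but neither did 79.8% of all genes tested. The 5 genes lie below the mean of 1 FPKM over the 8 libraries that the test required.

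PCDHA3 read 0.796 and 0.870 FPKM in RD-ES control and 0.0600 and 0.137 FPKM in SK-N-MC control. PCDHA1 read 0.910 and 0.812 FPKM against 0.249 and 0.326 FPKM. PCDHA11 read 0.974 and 0.997 FPKM against 0.0648 and 0.0247 FPKM, the last values being those of a few reads. All 3 were thus higher in both RD-ES control libraries. By group means PCDHA12 (0.6871 against 0.006926 FPKM) and PCDHA13 (0.3455 against 0.06217 FPKM) were also higher in RD-ES control, with low values in SK-N-MC. PCDHA5 (0.828 and 1.07 FPKM against 1.55 and 0.828 FPKM) and the C-type PCDHAC1 (0.715 and 0.597 FPKM against 0.389 and 0.303 FPKM) differed less, and only those of PCDHA5 overlapped.

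In the beta cluster each line had a leading gene of its own beside a shared one. PCDHB2 was high in both lines, at 11.5 and 11.4 FPKM in RD-ES control and 6.35 and 4.22 FPKM in SK-N-MC control. PCDHB5 measured 0.359 and 0.301 FPKM in RD-ES control and 5.81 and 6.13 FPKM in SK-N-MC control, 18.1-fold higher in the latter. PCDHB3 measured 4.47 and 4.40 FPKM in RD-ES control and 0.880 and 0.860 FPKM in SK-N-MC control, 5.10-fold higher in the former. The libraries of the lines did not overlap in any of the 3 genes, nor did they in 79.8% of all genes tested.

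PCDHB12, PCDHB16 and PCDHB9 were expressed in both lines. PCDHB12 stood at 2.90 and 2.98 FPKM in RD-ES control and 2.21 and 2.31 FPKM in SK-N-MC control. PCDHB16 stood at 2.67 and 2.51 FPKM against 4.03 and 3.29 FPKM, and PCDHB9 at 1.07 and 0.807 FPKM against 2.27 and 3.39 FPKM. PCDHB16 and PCDHB9 were higher in both SK-N-MC libraries and PCDHB12 in both RD-ES libraries. PCDHB1, the most upstream beta gene, was near 0 throughout, with group means from 0.0104 to 0.0254 FPKM.

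In the gamma cluster the shared leading gene was again C-type. PCDHGC3, which binds AXIN1 and restrains Wnt signalling, measured 10.7 and 11.2 FPKM in RD-ES control and 8.82 and 7.37 FPKM in SK-N-MC control. The other C-type genes split between the lines. PCDHGC4, which protects interneurons from cell death during development, read 2.41 and 4.41 FPKM in RD-ES control and 0.176 and 0.229 FPKM in SK-N-MC control. PCDHGC5 read 0.395 and 0.425 FPKM in RD-ES control and 1.74 and 1.70 FPKM in SK-N-MC control. Neither of these 2 genes overlapped between the lines, which was also so for 79.8% of all genes tested.

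Of the gamma members upstream of the C-type genes, PCDHGA11 was the leading isoform of SK-N-MC. It measured 0.878 and 0.782 FPKM in RD-ES control and 7.11 and 8.50 FPKM in SK-N-MC control, 9.41-fold higher. PCDHGB4 and PCDHGB5, by contrast, had group means of 1.73 ± 0.174 and 1.92 ± 0.196 FPKM in RD-ES control and of 0.112 ± 0.0779 and 0.0742 ± 0.0245 FPKM in SK-N-MC control (SD, n = 2). PCDHGA10 (1.89 and 2.11 FPKM in RD-ES control against 1.08 and 1.15 FPKM in SK-N-MC control) and PCDHGB2 (1.57 and 1.64 FPKM against 2.18 and 2.23 FPKM) reached 1 FPKM in both lines. PCDHGA3 and PCDHGA12 stayed under 0.15 FPKM in all 4 group means, well under 1 FPKM.

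The difference between the lines was tested with limma, which fits a linear model to log2(FPKM + 1) of all 4 groups and shares the variance between genes. The test took in 15175 genes whose mean over the 8 libraries reached 1 FPKM, and 17 of them were members. Adjusted p (Benjamini-Hochberg) was under 0.05 for 7 of these 17 (41.2%), against 57.8% of all genes tested. With this filter, calls were thus no more frequent among the members than among all genes tested. The filter keeps a gene that is high in only 1 line, so the count over tested members is not evidence about the family. With no filter on low values, 22 of all 54 members (40.7%) passed, 7 alpha, 7 beta and 8 gamma, against 30.8% of 31445 genes. The members thus had the larger share there, so the order of the shares depended on the filter. Of the 54 members, 6 were called higher in SK-N-MC, against 16.7% of all genes, and 16 were called lower, against 14.0%.

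Of the 7 called members 3 were higher in SK-N-MC (31.4% of all genes) and 4 lower (26.4%), and the largest of these differences were those of PCDHB5 and PCDHGA11. The control libraries of the lines did not overlap for 14 of the 17 tested members, against 79.8% of all genes. PCDHB5 was higher in SK-N-MC control by 2.39 on the log2 scale (SE 0.137, adjusted p = 5.19e-05, limma) and PCDHGA11 by 2.26 (SE 0.188, adjusted p = 0.000196). PCDHB9 was higher by 0.97 (SE 0.192, adjusted p = 0.00617). Lower in SK-N-MC control were PCDHGC4 (-1.84, SE 0.260, adjusted p = 0.00158), PCDHB3 (-1.54, SE 0.138, adjusted p = 0.000263), PCDHB2 (-1.01, SE 0.244, adjusted p = 0.0135) and PCDHGA10 (-0.50, SE 0.162, adjusted p = 0.0367). These differences are on the log2(FPKM + 1) scale, which understates the change of low genes.

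PCDHB2 and PCDHGA10 were no longer called when some single control libraries were left out, while the direction stayed the same (-1.25 to -0.76 and -0.56 to -0.45 over all such fits). The adjusted p of PCDHB2 was 0.0681 without RD-ES control replicate 1, 0.0653 without RD-ES control replicate 2 and 0.0823 without SK-N-MC control replicate 2. That of PCDHGA10 was 0.0618 without RD-ES control replicate 2, and 0.0641 and 0.0527 without replicate 1 or 2 of SK-N-MC control. The other 10 tested members did not pass, among them PCDHAC2 (-0.28, 95% interval -1.22 to 0.66, adjusted p = 0.56) and PCDHGC3 (-0.40, adjusted p = 0.0795).

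**Figure D2:**
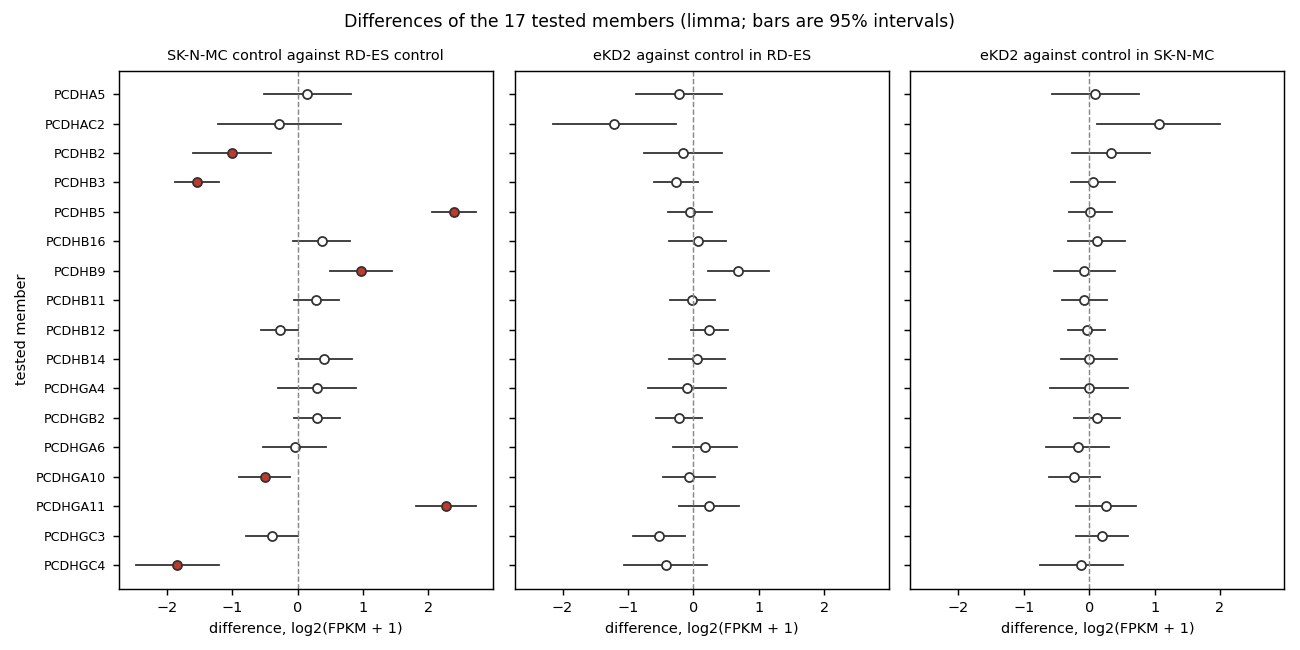
Difference of each of the 17 tested members between the lines (left) and between eKD2 and control in each line (middle and right), on the log2(FPKM + 1) scale; points are limma estimates over n = 2 libraries per group, bars are 95% intervals, and filled points have an adjusted p under 0.05. All 7 filled points lie in the comparison of the lines, from -1.84 (PCDHGC4) to 2.39 (PCDHB5).

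Isoform make-up, the share of each member in the sum of its cluster, was less alike between the lines than between replicates in all 3 clusters. For 2 libraries, the shared make-up was taken as the sum over members of the smaller of both shares. Libraries of different lines shared 57.9% to 73.2% of the beta make-up (16 pairs), whereas replicates shared 88.3% to 95.4% (4 pairs). For the gamma cluster the ranges were 55.4% to 70.7% between lines and 85.8% to 95.2% between replicates. For the alpha cluster they were 30.7% to 72.2% and 78.3% to 93.2%. In no cluster did a pair of libraries from different lines share as much as any pair of replicates.

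**Figure D3:**
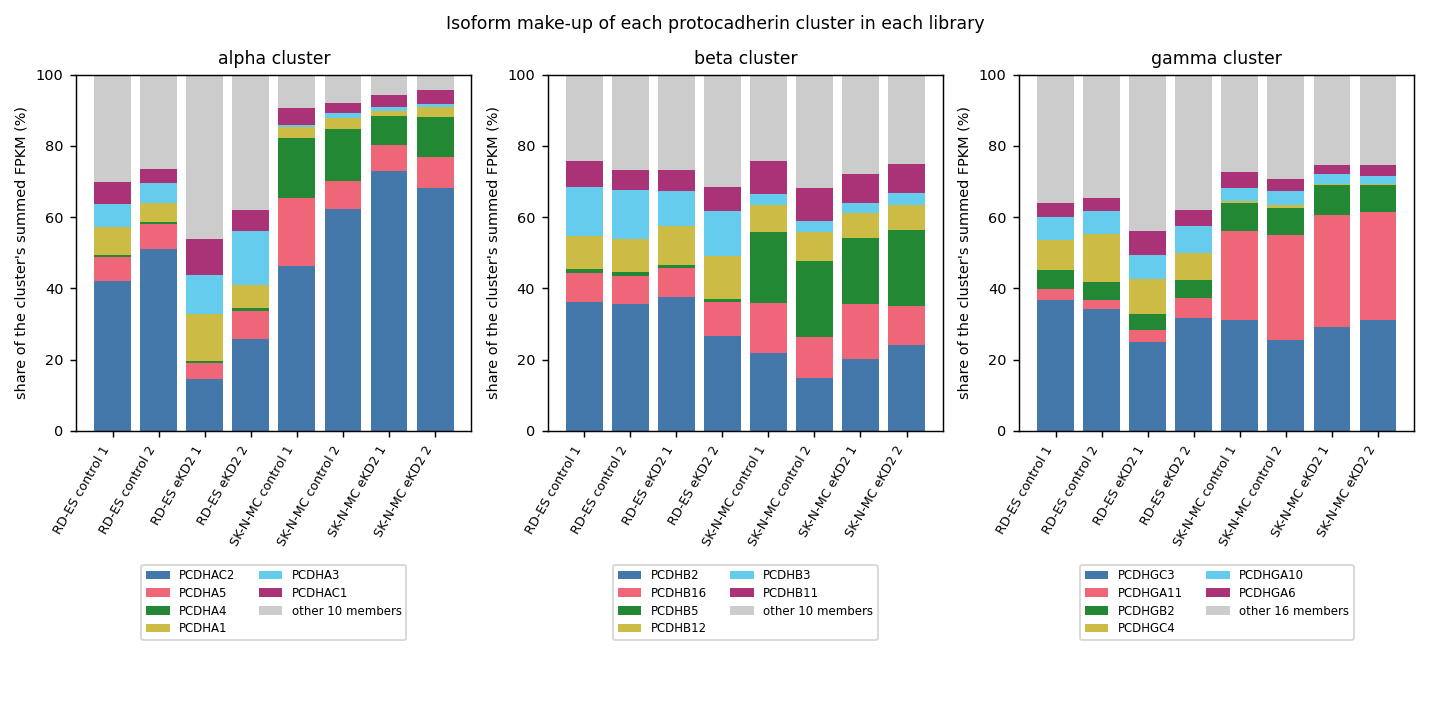
Share of the 6 members with the highest mean share, and of all other members together, in the summed FPKM of the alpha, beta and gamma clusters; each bar is 1 library. PCDHB5 and PCDHGA11 take large shares in the 4 SK-N-MC libraries and small ones in the 4 RD-ES libraries, and PCDHAC2 takes 14.5% to 72.8% of the alpha sum.

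Between eKD2 and control libraries of the same line, the beta and gamma make-up was about as alike as between replicates. They shared 87.0% to 94.7% of the beta make-up and 83.5% to 93.5% of the gamma make-up (8 pairs each). For the alpha cluster the range was 60.9% to 91.8%, which overlapped that between lines. Without PCDHAC2, the alpha range between eKD2 and control was 81.7% to 88.0%, beside 80.3% to 93.8% between replicates and 35.2% to 50.9% between lines. The wider spread of the alpha cluster thus came from the share of 1 gene, PCDHAC2. Pairs of libraries are not independent of each other, and no test was run on them.

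**Figure D4:**
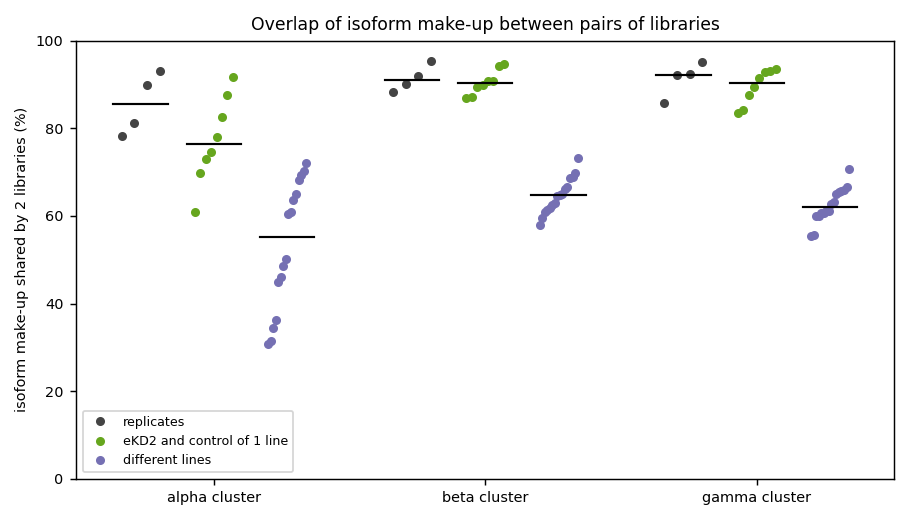
Share of isoform make-up (%) common to 2 libraries, for each cluster and for 3 kinds of library pairs; points are pairs of libraries and black lines are medians. Pairs from different lines (at most 73.2%) lie below all pairs of replicates (at least 78.3%).

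How evenly a cluster's expression was spread over its members was described by the inverse of the summed squared shares, which equals the number of members if all have the same share. For the beta cluster it was 5.64 and 5.73 in RD-ES control and 7.45 and 8.47 in SK-N-MC control, so that beta expression was more even in SK-N-MC. The number of beta members at 0.5 FPKM was not higher there, at 10 and 11 in the SK-N-MC control libraries and 13 and 13 in the RD-ES control libraries. For the alpha cluster it was 4.69 and 3.5 in RD-ES control and 3.52 and 2.40 in SK-N-MC control. For the gamma cluster it was 6.05 and 6.37 in RD-ES control and 5.62 and 5.88 in SK-N-MC control. The control libraries of the lines did not overlap in the beta and gamma values, and did in the alpha values.

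With eKD2, the same measure was higher in RD-ES for the alpha (9.87 and 7.77) and gamma clusters (9.73 and 7.55), above both controls of the line. The leading members had smaller shares there, with PCDHAC2 at 14.5% and 25.8% of the alpha sum and PCDHGC3 at 25.0% and 31.6% of the gamma sum (36.8% and 34.3% in control). In SK-N-MC eKD2 the measure was lower than in both controls for the alpha (1.84 and 2.05) and gamma clusters (5.01 and 4.93). The beta values of eKD2 libraries, 5.43 and 7.72 in RD-ES and 7.95 and 7.18 in SK-N-MC, did not lie to 1 side of their controls. The highest alpha and gamma values were those of RD-ES eKD2 replicate 1, the shallowest library, and the part of depth was not tested. These values are a description, with no test.

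No member passed the test for an effect of eKD2 in either line. In RD-ES the adjusted p was under 0.05 for 0 of 17 members, against 0.343% of all genes tested (52 genes), with 3 of 17 members at an unadjusted p under 0.05, against 12.3% of all genes. In SK-N-MC it was 0 of 17 members against 0.323% of all genes (49 genes), with 1 of 17 at an unadjusted p under 0.05, against 13.0%. With no filter, 0 of all 54 members passed in either line, against 0.251% of all genes (RD-ES) and 0.375% (SK-N-MC). Of the 54, 8 members in RD-ES had an unadjusted p under 0.05 (9.63% of all genes), and 1 member did in SK-N-MC (9.59%). The libraries of eKD2 and control did not overlap for 9 of 17 members in RD-ES, against 39.3% of all genes, and for 7 of 17 in SK-N-MC, against 47.3%.

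The median difference of the 17 tested members on the log2 scale was -0.06 for RD-ES and 0.02 for SK-N-MC, beside 0.03 and -0.0049 over all genes tested. For PCDHB5 and PCDHGA11, which differed most between the lines among the tested members, the values with eKD2 were as follows. PCDHB5 measured 5.74 and 6.39 FPKM with eKD2 in SK-N-MC and 0.290 and 0.278 FPKM with eKD2 in RD-ES. Its difference between eKD2 and control was 0.02 in SK-N-MC (95% interval -0.32 to 0.35) and -0.05 in RD-ES (-0.38 to 0.28). PCDHGA11 measured 9.25 and 9.68 FPKM with eKD2 in SK-N-MC and 0.823 and 1.55 FPKM with eKD2 in RD-ES, with differences of 0.25 (-0.21 to 0.71) and 0.24 (-0.22 to 0.70). These intervals leave room for moderate changes but not for one of the size seen between the lines. In RD-ES control both genes were under 1 FPKM, so a fall of that size could not appear on the log2(FPKM + 1) scale. For RD-ES the intervals thus bear only on a rise of that size.

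Other members in eKD2 cells stayed on the side of their line as well. With eKD2, PCDHB3 measured 3.32 and 3.68 FPKM in RD-ES but 0.853 and 1.05 FPKM in SK-N-MC. PCDHA4 read 0.0580 and 0.1 FPKM in the former line and 1.53 and 1.60 FPKM in the latter. PCDHGC4 read 2.43 and 1.99 FPKM in the former and 0.111 and 0.102 FPKM in the latter. In each of these genes all 4 libraries of the higher line stood above all 4 libraries of the other. The share of all genes with such a separation was not computed, and these genes already differed between the control libraries.

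The eKD2 values of the other leading members were as follows. PCDHB2 measured 12.8 and 7.96 FPKM in RD-ES and 6.36 and 7.21 FPKM in SK-N-MC, where its controls had 6.35 and 4.22 FPKM. PCDHB12 measured 3.69 and 3.62 FPKM in RD-ES, above both controls, and 2.23 and 2.12 FPKM in SK-N-MC (differences of 0.24 and -0.04). PCDHB16 measured 2.72 and 2.80 FPKM in RD-ES and 4.85 and 3.32 FPKM in SK-N-MC. None of the 3 beta genes passed the test in either line.

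PCDHA1 and PCDHA3 were higher in RD-ES with eKD2 as well. PCDHA1 read 1.17 and 0.846 FPKM and PCDHA3 read 0.956 and 1.92 FPKM with eKD2 in RD-ES. For SK-N-MC with eKD2, PCDHA1 read 0.260 and 0.396 FPKM and PCDHA3 read 0.196 and 0.124 FPKM. PCDHA5 read 0.393 and 1.00 FPKM in the former and 1.34 and 1.27 FPKM in the latter. Of the C-type genes, PCDHAC1 read 0.886 and 0.770 FPKM in the former and 0.590 and 0.552 FPKM in the latter, above its controls in each line. PCDHGC5 read 0.312 and 0.218 FPKM in the former and 1.32 and 1.66 FPKM in the latter, below its controls in each line. Neither PCDHAC1 nor PCDHGC5 passed for eKD2 when tested without the filter. The adjusted p (limma) of PCDHAC1 was 0.70 for RD-ES and 0.54 for SK-N-MC, and that of PCDHGC5 was 0.73 and 0.82. Of all genes tested with the filter, 39.3% (RD-ES) and 47.3% (SK-N-MC) had no overlap between eKD2 and control libraries, in either direction. These shares are for each line alone, and PCDHAC1 and PCDHGC5 were not among the genes tested with the filter. The share of genes on the same side in both lines was not computed.

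Among the members, PCDHAC2 had the lowest unadjusted p in SK-N-MC, and it stood on opposite sides of its controls in the lines. In RD-ES eKD2 it measured 1.28 and 3.30 FPKM, below both controls (5.01 and 7.70 FPKM). In SK-N-MC eKD2 it measured 13.3 and 9.79 FPKM, above both controls (3.77 and 6.43 FPKM). Such opposite sides were seen in 10.2% of all genes tested. The difference was -1.21 on the log2 scale in RD-ES (SE 0.384, unadjusted p = 0.0196, adjusted p = 0.31, limma) and 1.06 in SK-N-MC (SE 0.384, unadjusted p = 0.0325, adjusted p = 0.34). The difference of these differences was 2.27 (SE 0.543, unadjusted p = 0.00569, adjusted p = 0.21), so it did not pass over all genes tested. The lowest value was in the shallowest library, RD-ES eKD2 replicate 1, and the part of depth was not tested.

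PCDHB9 and PCDHGC3 were the other tested members at an unadjusted p under 0.05, both in RD-ES. PCDHB9 measured 2.13 and 2.11 FPKM in RD-ES eKD2 against 1.07 and 0.807 FPKM in control (0.69, SE 0.192, unadjusted p = 0.0114, adjusted p = 0.26, limma). In SK-N-MC it overlapped between eKD2 (2.81 and 2.39 FPKM) and control (2.27 and 3.39 FPKM). PCDHGC3 measured 6.22 and 8.50 FPKM in RD-ES eKD2 against 10.7 and 11.2 FPKM in control (-0.53, SE 0.163, unadjusted p = 0.0175, adjusted p = 0.29). In SK-N-MC it also overlapped, at 8.64 and 10.1 FPKM in eKD2 and 8.82 and 7.37 FPKM in control.

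Of the 8 members at an unadjusted p under 0.05 in RD-ES without the filter, PCDHGB5 had the lowest, at 1.29 and 1.09 FPKM in eKD2 against 1.78 and 2.06 FPKM in control (-0.42, SE 0.101, unadjusted p = 0.00785, adjusted p = 0.27, limma). PCDHGA2 and PCDHB7 were likewise lower in both eKD2 libraries, and PCDHB10 and PCDHA9 higher. PCDHB10 went from 0.546 and 0.605 FPKM to 0.945 and 0.978 FPKM. All but PCDHGB5 and PCDHB10 of these 5 members stayed under 0.3 FPKM in RD-ES, and none of the 5 passed the adjusted test.

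The next lowest unadjusted p in SK-N-MC belonged to PCDHGA10 and PCDHGA11. PCDHGA10 stood at 0.820 and 0.794 FPKM in SK-N-MC eKD2, below its controls (1.08 and 1.15 FPKM), with a difference of -0.23 (95% interval -0.62 to 0.17). In RD-ES eKD2 it stood at 1.70 and 2.04 FPKM, beside 1.89 and 2.11 FPKM in control, with overlapping libraries. None of these differences passed the test.

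**Figure D5:**
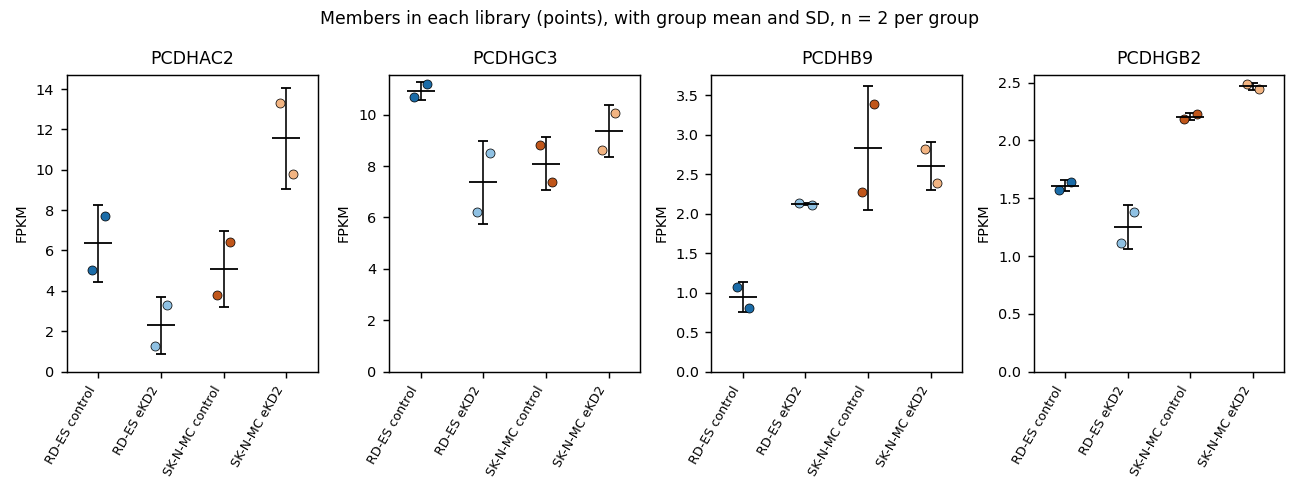
FPKM of PCDHAC2, PCDHGC3, PCDHB9 and PCDHGB2 in each library (points), with the mean and SD of each group (n = 2). PCDHAC2 lies below its controls in RD-ES eKD2 and above them in SK-N-MC eKD2, and PCDHGB2 does so by much less.

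Tests of whether eKD2 acted differently in the lines found 0 of 17 members, against 0.244% of all genes tested, and 3 of 17 at an unadjusted p under 0.05, against 13.5% of all genes. Besides PCDHAC2 these were PCDHGC3 (0.72, SE 0.230, adjusted p = 0.29, limma) and PCDHB9 (-0.76, SE 0.272, adjusted p = 0.32). The comparison of the lines and both eKD2 comparisons share control libraries, so their values for a gene are not independent of each other.

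The beta cluster summed to 31.8 ± 2.87 FPKM in RD-ES eKD2 and 30.7 ± 0.921 FPKM in SK-N-MC eKD2 (SD, n = 2), and the gamma cluster to 25.9 ± 1.47 and 30.9 ± 1.89 FPKM. The gamma libraries of RD-ES eKD2 lay below those of its control (0.84-fold) and the gamma libraries of SK-N-MC eKD2 above theirs (1.08-fold), as did the beta libraries of SK-N-MC eKD2 (1.07-fold), with an exact permutation p of 0.33 for each. The alpha cluster summed to 10.8 ± 2.82 FPKM in RD-ES eKD2 and 16.3 ± 2.78 FPKM in SK-N-MC eKD2, against 13.5 and 9.24 FPKM in control (0.798-fold and 1.77-fold, exact permutation p = 0.67 and 0.33). Without PCDHAC2 the alpha sum in RD-ES was 7.54 and 9.50 FPKM with eKD2, beside 6.94 and 7.42 FPKM in control. For SK-N-MC it was 4.98 and 4.58 FPKM in eKD2 and 4.37 and 3.90 FPKM in control, so that most of the alpha difference in SK-N-MC lay in PCDHAC2 alone.

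The way reads are shared out between members limits what the alpha and gamma values can show. In the annotation, 21.4% to 56.6% of the exonic bases of the coding alpha genes and 27.5% to 64.4% of those of the gamma genes lie in bases that other members also use, 46.6% for PCDHAC2. Reads from these constant exons are apportioned between members by the counting software, so the values of different alpha or gamma members are not independent. The beta members share no exonic bases, but their sequences are alike and the treatment of reads with several matches is not given in the sources used here. The values of PCDHB2, PCDHB3, PCDHB5 and PCDHB16 include stretches that an antisense gene overlaps (393 to 1796 bases), as do those of PCDHA1, PCDHA3 and PCDHA5 (433 to 2719 bases). With a kit that does not mark strand, reads of a gene and its antisense partner cannot be told apart. The antisense gene at PCDHB2 was listed at 0 to 0.452 FPKM.

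The tested protocadherins outside the clusters, which have their own loci, differed between the lines. Of 11 such genes 8 were tested, and all 8 differed between the control lines, against the same 57.8% of all genes. The filter keeps a gene that is high in only 1 line, so this count is not evidence about these genes as a group. PCDH8, PCDH9, PCDH10, PCDH18, PCDH19 and PCDH20 were higher in SK-N-MC (0.47 to 2.94 on the log2 scale), and PCDH7 and PCDH17 higher in RD-ES (-2.76 and -3.17). PCDH17, an adhesion protein of axons, stood at 33.7 and 38.8 FPKM in RD-ES control and 3.41 and 2.87 FPKM in SK-N-MC control. None of the 8 passed for eKD2 in either line. PCDH18 (0.46 in RD-ES, adjusted p = 0.21) and PCDH8 (-0.54 in SK-N-MC, adjusted p = 0.22) had the lowest unadjusted p.

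Of 13 genes that lie beside the clusters 10 were tested, and 4 differed between the control lines (57.8% of all genes). WDR55 (-1.03), HARS (-0.83) and HARS2 (-0.36) were lower in SK-N-MC control, and RELL2 (0.63) was higher. None passed for eKD2, with WDR55 at -0.30 in RD-ES (adjusted p = 0.25) and HARS at -0.28 in SK-N-MC (adjusted p = 0.26) closest.

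Factors known to act in promoter choice were present in both lines. All 19 genes of that list were tested, and 12 differed between the control lines (63.2%, beside 57.8% of all genes). Of the cohesin genes, RAD21 (1.46), STAG2 (1.73), STAG1 (0.81) and the cohesin regulator PDS5B (0.63) were higher in SK-N-MC. SMCHD1, a repressor of clustered protocadherins, was higher by 0.81. DNMT3B, a DNA methyltransferase that sets methylation of these promoters in the embryo, stood at a mean of 18.3 FPKM in RD-ES control and 4.24 FPKM in SK-N-MC control (-1.88).

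DNMT3A (-0.42), TET1 (-0.41) and SETDB1 (-0.84), which methylates histone H3 at heterochromatin, were also lower in SK-N-MC. DNMT1 (0.29) and the demethylases TET2 (1.27) and TET3 (0.59) were higher. CTCF, which binds the conserved element, stood at means of 23.1 and 26.3 FPKM in RD-ES and SK-N-MC control and did not pass (0.18, adjusted p = 0.0637). None of the 19 passed for eKD2 in either line, with STAG1 at 0.31 in RD-ES (adjusted p = 0.23) and SMC1A at -0.34 in SK-N-MC (adjusted p = 0.15) at the lowest unadjusted p. The part of these genes in the isoform choice was not tested.

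Partners of clustered protocadherins inside the cell were expressed in both lines, and 16 of 18 tested differed between them (57.8% of all genes). PTK2, PTK2B, NCKAP1, ABI1, ABI2, WASF1, WASF2, FYN, MARCKS and PSENEN were higher in SK-N-MC control (0.31 to 2.34). CYFIP2, WASF3, BRK1, RAC1, NCSTN and APH1A were lower (-0.32 to -3.24). Among them are kinases that the cytoplasmic domain binds or inhibits (PTK2, PTK2B) and members and regulators of the WAVE complex that directs actin assembly. Others are subunits of the gamma-secretase that cleaves protocadherins. None passed for eKD2, and CYFIP2 in SK-N-MC (0.88, adjusted p = 0.0788) and FYN in RD-ES (0.35, adjusted p = 0.20) were closest.

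Of the classical cadherins and catenins, 9 of 13 were tested and 6 differed between the control lines (57.8% of all genes). CDH4, CDH11, CTNND2 and JUP were higher in SK-N-MC (0.90 to 4.18), and CDH6 and CTNNB1 were lower (-0.95 and -0.65). None of them had an unadjusted p under 0.05 for eKD2 in either line.

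Markers of other cells moved with the line as well. PTPRC, a leukocyte gene, stood at 22.6 and 21.5 FPKM in SK-N-MC control and at no more than 0.0173 FPKM in RD-ES, and EPCAM, an epithelial gene, at 4.03 and 4.54 FPKM against 0.3 and 0.446 FPKM in RD-ES control. PTPRC, EPCAM, MYOD1 and DES together summed to 26.1 and 26.7 FPKM in SK-N-MC control, 22.3 and 25.6 FPKM in SK-N-MC eKD2, 0.317 and 0.459 FPKM in RD-ES control and 0.380 and 0.971 FPKM in RD-ES eKD2. MYOD1 and DES, both muscle genes, were at 0 in all RD-ES libraries. The Ewing sarcoma markers also differed, with NR0B1, STEAP1, PAX7 and BCL11B higher in SK-N-MC control (0.27 to 3.75) and CD99, LIPI and CCND1 lower (-0.44 to -1.46). The part of these genes in the difference of isoform make-up was not tested.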

How the data were processed

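Per the labels and the study's methods, the authors prepared unstranded libraries (TruSeq RNA v2), aligned single-end reads to hg19 with STAR and computed FPKM per gene with cufflinks and cuffnorm. These deposited FPKM values were used as given, except that values below 1e-30, which are numerical residue, were set to 0. The deposited table holds no read counts, so the count test of the study (DESeq2) was not run.

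Values were compared as log2(FPKM + 1) with limma 3.58.1 (R 4.3.3; lmFit, contrasts.fit, eBayes with trend) over all 8 libraries in 4 groups, with Benjamini-Hochberg adjustment over the 15175 genes whose mean reached 1 FPKM. The procedure was tested on simulated data with known changes. Cluster sums were compared by exact permutation. Coordinates and exons came from GENCODE v44lift37, and promoters from RefSeq (GRCh38.p14).

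Values per library are given for the 5 highest members of each cluster, the C-type members, members with an adjusted p under 0.05 and the 3 with the lowest p for each eKD2 comparison. For other lists, genes with an adjusted p under 0.05 are named, and otherwise those with the lowest p for eKD2. PCDHA2, PCDHA11, PCDHA12, PCDHA13, PCDHGB4, PCDHGB5, the promoters shown and the low members of the unfiltered test were singled out after their values were seen. Some genes of the other lists are not reported here. The members and lists were chosen with earlier results of these data known. Alternatives in pseudocount, filter, scaling, variance model, replicate block and libraries were tried.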

Additional observations from a re-analysis of the deposited data

Results flagged for a closer look

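For PCDHAC2 and PCDHGB2, both eKD2 libraries stood below both controls in RD-ES and above both controls in SK-N-MC. Opposite sides in the lines, counted in either direction, were seen in 10.2% of all genes tested. The share for this direction alone was not computed. For PCDHAC2 the eKD2 effect in SK-N-MC exceeded that in RD-ES by 2.27 on the log2 scale (SE 0.543, 95% interval 0.94 to 3.6, unadjusted p = 0.00569, adjusted p = 0.21, limma). Its adjusted p ranged from 0.149 to 0.417 over the alternatives and passed under none of them.

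PCDHGB2 stood at 1.57 and 1.64 FPKM in the RD-ES controls, with 1.11 and 1.38 FPKM after eKD2. The SK-N-MC controls held 2.18 and 2.23 FPKM, and the SK-N-MC eKD2 libraries 2.49 and 2.45 FPKM. The difference of effects was 0.331 (SE 0.203, unadjusted p = 0.15, adjusted p = 0.54, limma), which did not pass the test.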

How the results depend on the processing

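No member passed for eKD2 in either line, or for a difference of the eKD2 effects, under any alternative run. For the comparison of the lines, 7 tested members passed, and 22 of all 54 without the filter on low values, where more genes are tested. The count was 6 with the replicate block, 9 with median scaling, quantile normalization or the control lines fitted alone, 10 without the variance trend, and 5 to 8 with 1 library left out. The numbers of genes that passed moved more. In RD-ES (52 genes) they were 79 without the filter, 1 with the line fitted alone, 11 with the replicate block and 27 to 71 with 1 library left out. In SK-N-MC (49 genes) they were 118, 13, 5 and 12 to 76 in the same order. For the difference of effects (37 genes) they were 66 without the filter, 7 with the replicate block and 54 to 81 with 1 library left out. Without its highest member the log2 ratio of the cluster sum reversed for alpha (0.247) and beta (0.0667) in RD-ES eKD2 and for beta (0.2) and gamma (0.048) between the lines. The beta ratio in RD-ES eKD2 also ranged from -0.101 to 0.0839 with 1 library left out. The cause of these changes was not tested.

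Libraries with the same number did not deviate together (r = 0.056 for RD-ES, 0.0274 for SK-N-MC), so the numbers were not taken to pair the libraries. The replicate block ended the call of PCDHGA10 (adjusted p = 0.0714) and no other call of a named member. Median scaling moved the median line difference of all genes from 0.065 to -0.0416. Values of low members are limited by depth, since 0.1 FPKM can rest on a few reads.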
